A study of Mus musculus with 8 samples.

Results

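Glycolysis and hypoxia response genes were examined in 4T1 cells, a mouse mammary carcinoma line used as a model of triple-negative breast cancer. The set held 39 of the 54532 genes listed in the count tables, and it was chosen with earlier results of these data known. Its members were given as a fixed list of gene symbols, which named the glucose and lactate transporters, the enzymes from hexokinase to lactate dehydrogenase, the regulators around them, the HIF alpha subunits and their prolyl hydroxylases, and genes that are known to be induced in low oxygen. All 39 symbols were found in the tables, and 34 of the genes passed the filter of more than 1 CPM, the count scaled to a fixed library total, in at least 2 libraries. The other 5 members, Slc2a3, Ldhb, Slc16a3, Epas1 and Adm, were too low to test and are described by their levels.

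Glycolysis splits glucose into pyruvate in the cytosol, and tumor cells commonly reduce much of that pyruvate to lactate and export it even when oxygen is present. Cells sense oxygen through prolyl hydroxylases, which mark the alpha subunits of hypoxia-inducible factor (HIF) for VHL-dependent destruction when oxygen is plentiful. In low oxygen the alpha subunit is stable, pairs with ARNT and binds DNA near genes for glucose uptake, glycolysis, lactate handling, mitophagy, collagen hydroxylation and acid balance. Many glycolytic enzymes are encoded by several genes, so that the enzyme made can differ between cells while the reaction stays the same. A name needs care here, because MCT-1, the translation factor silenced in these cells, is encoded by Mcts1, whereas the lactate transporter that is also called MCT1 is encoded by the member Slc16a1.

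Poly(A) RNA was sequenced from 4 groups with 2 libraries each. They were scramble + IgG and scramble + anti-IL-6R, and, with MCT-1 silenced, shMCT-1 + IgG beside shMCT-1 + anti-IL-6R. All cells carried a stably transfected shRNA plasmid, either a scramble control or 1 shRNA against MCT-1, and all were kept in RPMI-1640 with 10% serum and with puromycin, for which the labels and the methods give different doses. The antibody against the mouse IL-6 receptor was given at 100 ng/ml for 48 h, and the control groups received isotype IgG. Whether each line was a clone or a pool of transfectants, and the oxygen level of the cultures, are not given in the sources used here. Each background was 1 cell line, so that the silencing and any other difference between the scramble and the shMCT-1 line cannot be told apart. The labels number the libraries of a group as replicates without saying that they came from separate cultures, and p-values then measure the spread between these libraries, which may be technical.

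Library totals lay between 19839299 and 33063570 counts, and 1 CPM stood for 19.8 to 33.1 counts. Every shMCT-1 library had a smaller total than every scramble library, and the share of counts from mitochondrial genes was 0.840% to 1.53% in shMCT-1 and 1.97% to 2.52% in scramble. The libraries had the transcripts of an epithelial tumor line. The 11 epithelial markers summed to 2438 to 2597 CPM in scramble and 3261 to 3533 CPM in shMCT-1, with Krt5 at 0 in every library, and Epcam was 12.1-fold higher and Krt19 32.1-fold lower in shMCT-1 (edgeR's quasi-likelihood test, adjusted p = 6.33e-10 and 3.30e-09), Krt19 passing the filter through the scramble libraries alone. The 8 blood cell markers summed to at most 0.870 CPM, with Adgre1, Cd3e and Ncr1 among those at 0 throughout. The 7 fibroblast and endothelial markers summed to 11.4 to 16.9 CPM, of which Pdgfra made up 15.6 CPM in scramble and 13.5 CPM in shMCT-1, and the mean of Cdh5 was 0.0311 and 0.921 CPM, with values above 1 CPM in shMCT-1 libraries alone. Pdgfra and Cdh5 are named here after their values were seen. The part of these differences in the results below was not tested.

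The silenced gene was checked first. Mcts1 stood at 15.4 and 11.8 CPM in scramble + IgG, 12.8 and 13.5 CPM in scramble + anti-IL-6R, 6.32 and 6.18 CPM in shMCT-1 + IgG, and 6.70 and 4.92 CPM in shMCT-1 + anti-IL-6R. Every shMCT-1 library lay below every scramble library (exact permutation test of 4 against 4 libraries, two-sided, p = 0.0286, the smallest this design allows). Its log2 fold change across both treatments was -1.10 ± 0.12 (SE, adjusted p = 1.13e-05). In RNA from whole cultures, fewer cells that express a gene and less of its RNA per cell cannot be told apart.

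shMCT-1 cells had higher transcript levels of most of the glycolytic pathway and of several classical hypoxia genes, while Hif1a and Pdk1 were lower. Some sizes and calls changed after correction for GC content and transcript length, as given below. Across both treatments, 21 of the 34 tested members rose and 5 fell. That is 61.8% called higher and 14.7% called lower, against 35.0% called higher and 34.0% called lower among all 12704 tested genes, so that a large part of the transcriptome differed between these lines. Because the members were chosen with earlier results of these data known, the excess over all genes gives no independent support. The median log2 fold change was 0.34 over the tested members and 0.01 over all tested genes. In 20 members all 4 shMCT-1 libraries lay above all 4 scramble libraries in CPM, which was so for 29.9% of all tested genes. In 7 members they all lay below, which was so for 34.2%. Overlap was read from CPM throughout, which leave out the TMM factors that scale the libraries in the tests. These factors were 1.002 to 1.027 in scramble and 0.976 to 0.986 in shMCT-1, so that CPM put shMCT-1 lower than the tests do. The 39 members together took 1.56% to 1.75% of all counts in scramble and 1.98% to 2.15% in shMCT-1.

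**Figure D1:**
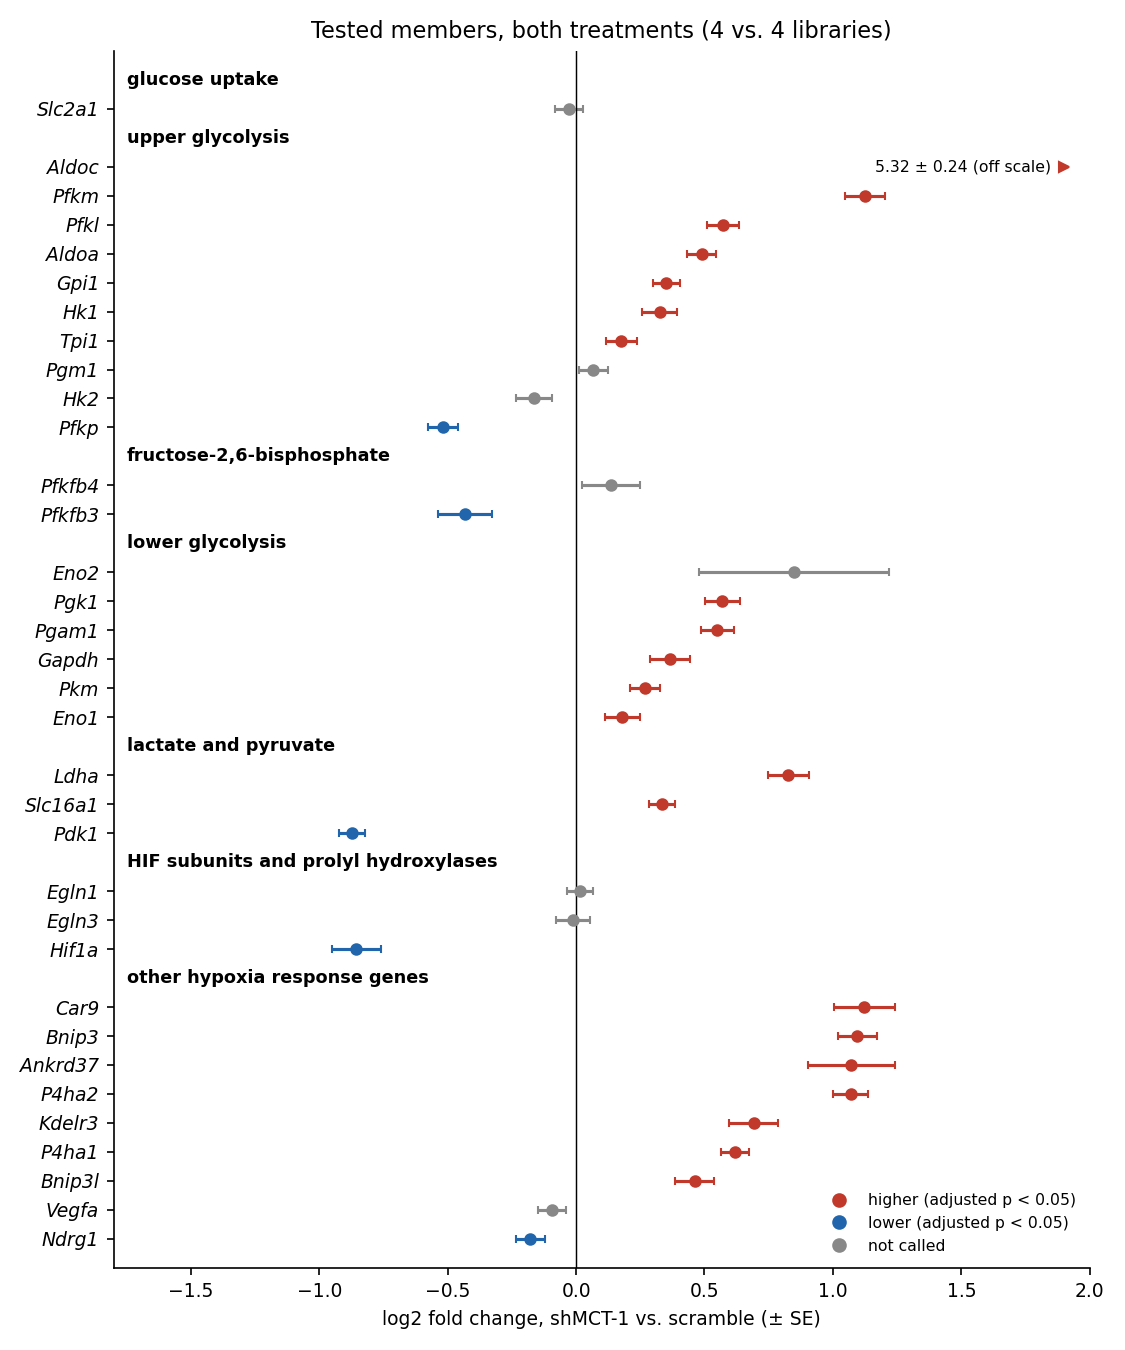
Log2 fold changes of the 34 tested members in shMCT-1 vs. scramble across both treatments, grouped by role, with the standard error as bars (4 libraries against 4). Of the 16 enzymes of upper and lower glycolysis 12 were higher and 1, Pfkp, was lower, while Hif1a and Pdk1 lay near -0.9 and Aldoc, at 5.32, is drawn as an arrow off the scale. The calls of Tpi1, Eno1, Pkm and Pfkp were lost after correction for GC content and transcript length.

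The promoters of the members were searched for the core of the hypoxia response element, the letters to which HIF binds, to show what the rising and falling members share in sequence. The search took ACGTG and GCGTG on both strands, within 250 bases before to 50 bases after each RefSeq start on GRCm38.p6. The table held windows for 35 members, all but Slc2a3, Epas1, Bnip3l and Ndrg1. At least 1 match was found in 32 of these 35 members (91.4%), against 46.7% of all 27025 genes with a window. Matches at 2 or more places were found in 74.3% of the members and 19.2% of all genes. The members include genes listed because they are known to be induced in low oxygen, so that this excess gives no independent support. Some genes had several windows, and counted by window the share with a match was 81.6% of 49 member windows and 43.8% of all 32851. Base composition differed too, as the median window held 62.0% G and C and 20 CpG steps in members and 52.7% and 7 over all windows, and both motifs hold a CpG. Within the set, the letters did not sort the members by direction. They were present in 18 of 20 members called higher, 4 of 4 called lower, 7 of 8 not called and 3 of 3 not tested. The members without a match were Gpi1, Tpi1 and Eno2. A match is a description of the letters and not of a bound site.

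The stretches from 150 to 21 bases before the start are shown for 4 members that rose, Ldha, Bnip3, P4ha1 and P4ha2, for Hif1a and Pdk1, which fell, and for Hk2, which was not called. They were taken from RefSeq windows on GRCm38.p6, run 5′ to 3′ on the strand of the gene, and hold no exon of GENCODE M21. Where several windows of a gene met this, the stretch with the most matches was taken. Ldha and Pdk1 had 2 windows each and the other members shown had 1, so that match numbers are not on equal terms. Those of Ldha, P4ha2 and Hif1a lie inside the annotated gene, after an earlier annotated start. Capitals mark the matches on either strand. The strands and positions are plus at chr7:46845654-46845783 for Ldha, minus at chr7:138909527-138909656 for Bnip3, plus at chr10:59323146-59323275 for P4ha1, plus at chr11:54100774-54100903 for P4ha2, plus at chr12:73907717-73907846 for Hif1a, plus at chr2:71873074-71873203 for Pdk1 and minus at chr6:82774475-82774604 for Hk2.
Ldha: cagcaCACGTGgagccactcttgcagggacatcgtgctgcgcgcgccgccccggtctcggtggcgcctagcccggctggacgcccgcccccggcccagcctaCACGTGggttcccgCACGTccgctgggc
Bnip3: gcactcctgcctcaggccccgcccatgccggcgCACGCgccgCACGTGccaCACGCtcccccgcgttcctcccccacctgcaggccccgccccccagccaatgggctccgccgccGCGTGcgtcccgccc
P4ha1: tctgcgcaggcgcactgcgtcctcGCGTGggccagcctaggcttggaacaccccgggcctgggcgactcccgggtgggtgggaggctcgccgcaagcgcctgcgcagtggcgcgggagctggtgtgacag
P4ha2: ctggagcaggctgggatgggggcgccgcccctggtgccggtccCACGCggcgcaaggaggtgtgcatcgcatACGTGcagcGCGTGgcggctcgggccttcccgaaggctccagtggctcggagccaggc
Hif1a: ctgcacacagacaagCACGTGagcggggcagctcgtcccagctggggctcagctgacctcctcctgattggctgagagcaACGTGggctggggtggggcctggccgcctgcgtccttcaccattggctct
Pdk1: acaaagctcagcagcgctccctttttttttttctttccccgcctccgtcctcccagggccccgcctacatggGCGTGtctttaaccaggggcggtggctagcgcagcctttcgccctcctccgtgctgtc
Hk2: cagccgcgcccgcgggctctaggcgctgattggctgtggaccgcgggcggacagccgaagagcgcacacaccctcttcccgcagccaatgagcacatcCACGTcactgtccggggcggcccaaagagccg
The Ldha and Hif1a stretches both hold the palindrome CACGTG, in which the letters are read on both strands, and so does that of Bnip3. Ldha had matches at 3 places in this stretch, Bnip3 at 4, P4ha2 at 3 and Hif1a at 2, and the other members shown had 1.

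Of the glucose transporter genes in the set, Slc2a1, the gene of GLUT1, made up nearly all transcripts, and it was not called. Slc2a1 stood at 140 and 127 CPM in scramble + IgG, 149 and 142 CPM in scramble + anti-IL-6R, 131 and 129 CPM in shMCT-1 + IgG, and 139 and 131 CPM in shMCT-1 + anti-IL-6R. The groups overlapped, and Slc2a1 in shMCT-1 had a log2 fold change of -0.03 ± 0.05 (SE, adjusted p = 0.671). Slc2a3, the gene of the neuronal-type transporter GLUT3, was at or below 0.151 CPM in every library.

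In upper glycolysis, which turns glucose into triose phosphates, 7 of 10 tested genes rose and Pfkp fell, while Hk2 and Pgm1 were not called. Hexokinase traps glucose in the cell. Hk1, the housekeeping form, was 119 to 141 CPM in scramble and 145 to 159 CPM in shMCT-1, and it rose by 0.33 ± 0.07 on the log2 scale (SE, adjusted p = 0.00158). Hk2, the inducible form and a HIF target, was 160 to 182 CPM in scramble and 133 to 158 CPM in shMCT-1. These CPM did not overlap, but they leave out the TMM factors. The log2 fold change of Hk2 was -0.16 ± 0.07 (SE, adjusted p = 0.0561). Hk2 passed the test without scramble + IgG library 1 (-0.20) or shMCT-1 + anti-IL-6R library 2 (-0.22). It was also called with DESeq2 (-0.175), RLE size factors (-0.175), more than 1 CPM required in 7 libraries (-0.182) and a replicate block (-0.163). Per exon length, Hk2 made up 64.6% to 65.9% of both hexokinase transcripts in scramble and 54.6% to 59.0% in shMCT-1.

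Phosphofructokinase, the committed step of glycolysis, had isozyme genes that moved in opposite directions. Pfkm, the muscle form, was 13.1 and 11.5 CPM in scramble + IgG, 13.8 and 14.0 CPM in scramble + anti-IL-6R, 29.2 and 27.8 CPM in shMCT-1 + IgG, and 26.5 and 27.0 CPM in shMCT-1 + anti-IL-6R. It was thus 2.18-fold higher in shMCT-1, with no overlap (log2 fold change 1.13 ± 0.08, SE, adjusted p = 5.38e-07). Pfkl, the liver form, was the most abundant of the family and rose from between 315 and 331 CPM to between 438 and 505 CPM (log2 fold change 0.57 ± 0.06, adjusted p = 1.37e-05). Pfkp, the platelet form, which is often high in tumors, was 127 and 143 CPM in scramble + IgG, 131 and 128 CPM in scramble + anti-IL-6R, 92.8 and 90.7 CPM in shMCT-1 + IgG, and 84.3 and 89.2 CPM in shMCT-1 + anti-IL-6R. Pfkp fell by 0.52 on the log2 scale (SE 0.06, adjusted p = 2.07e-05). After correcting for GC content and the length of transcripts its value was -0.06 and the call was lost (adjusted p = 0.412). The share of Pfkp per exon length was 15.3% to 17.4% of the family in scramble and 7.0% to 8.38% in shMCT-1, and that of Pfkm was 5.58% to 6.88% and 8.83% to 10.3%.

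Aldolase cleaves fructose-1,6-bisphosphate. Aldoa, its main gene here, was 1134, 1074, 1147 and 1086 CPM in the scramble libraries and 1531, 1455, 1570 and 1465 CPM in the shMCT-1 libraries, with no overlap (log2 fold change 0.49 ± 0.06, SE, adjusted p = 2.14e-05). Aldoc, the brain form, had the largest change of any member. It stood at 0.218 and 0.125 CPM in scramble + IgG, 0.416 and 0.484 CPM in scramble + anti-IL-6R, 14.1 and 14.6 CPM in shMCT-1 + IgG, and 11.3 and 11.3 CPM in shMCT-1 + anti-IL-6R. The scramble libraries held 38 Aldoc counts in all and the shMCT-1 libraries 1122, a 39.3-fold difference in pooled CPM (exact 95% interval of the ratio 28.5 to 55.8, which covers counting error only). The fitted log2 fold change was 5.32 ± 0.24 (SE, adjusted p = 3.45e-08). Aldoc passed the filter on low values through the shMCT-1 libraries alone. Even so, Aldoc was at most 0.886% of the aldolase transcripts per exon length in shMCT-1, and at most 0.0397% in scramble.

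The remaining genes of upper glycolysis differed less between the backgrounds. Gpi1, which interconverts glucose and fructose phosphates, was 555 to 575 CPM in scramble and 672 to 729 CPM in shMCT-1 (log2 fold change 0.35 ± 0.05, SE, adjusted p = 1.77e-04). Tpi1, which equalises the triose phosphates, was 805 to 848 CPM and 862 to 974 CPM (log2 fold change 0.18 ± 0.06, adjusted p = 0.0218). The call of Tpi1 was lost without scramble + anti-IL-6R library 1 (0.18), scramble + anti-IL-6R library 2 (0.15), shMCT-1 + IgG library 1 (0.17) or shMCT-1 + anti-IL-6R library 1 (0.13). Pgm1, which links glycogen to glycolysis, was 76.9 to 84.2 CPM and 78.6 to 86.9 CPM, and the groups overlapped (log2 fold change 0.07 ± 0.06, adjusted p = 0.318).

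Pfkfb3 and Pfkfb4 make and break the sugar phosphate that activates phosphofructokinase. Pfkfb3, the form with high kinase activity, was 14.1 and 13.03 CPM in scramble + IgG, 12.2 and 14.2 CPM in scramble + anti-IL-6R, 9.06 and 8.06 CPM in shMCT-1 + IgG, and 9.88 and 11.4 CPM in shMCT-1 + anti-IL-6R. All shMCT-1 libraries lay below all scramble libraries, and Pfkfb3 fell by 0.43 on the log2 scale (SE 0.10, adjusted p = 0.00333). Within IgG the log2 fold change was -0.62 ± 0.13 (adjusted p = 0.00336) and within anti-IL-6R it was -0.25 ± 0.13 (adjusted p = 0.123). Pfkfb4 was 7.59 to 9.26 CPM in scramble and 7.83 to 10.8 CPM in shMCT-1 and was not called (log2 fold change 0.13 ± 0.11, adjusted p = 0.310).

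In lower glycolysis, which yields ATP and pyruvate, 5 of 6 genes rose. Pgk1, which makes the first ATP of this phase, was 920 and 754 CPM in scramble + IgG, 925 and 895 CPM in scramble + anti-IL-6R, 1258 and 1231 CPM in shMCT-1 + IgG, and 1298 and 1221 CPM in shMCT-1 + anti-IL-6R. It was 1.48-fold higher in shMCT-1 with no overlap (log2 fold change 0.57 ± 0.07, SE, adjusted p = 2.51e-05). Pgam1, which moves the phosphate group, rose from between 793 and 957 CPM to between 1235 and 1320 CPM (log2 fold change 0.55 ± 0.06, adjusted p = 2.09e-05). Gapdh, which reduces NAD and is often taken as a reference gene, was 2142 to 2803 CPM in scramble and 2947 to 3451 CPM in shMCT-1 (log2 fold change 0.36 ± 0.08, adjusted p = 0.00147). The scramble + IgG library 2 was low for several abundant transcripts, at 2142 CPM of Gapdh against 2701 CPM in the other library of its group. Pkm, pyruvate kinase, rose from between 3433 and 3621 CPM to between 3953 and 4218 CPM (log2 fold change 0.27 ± 0.06, adjusted p = 0.00170).

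Enolase makes phosphoenolpyruvate. Eno1 was 2883, 2381, 2859 and 2751 CPM in the scramble libraries and 3018, 2768, 3145 and 2962 CPM in the shMCT-1 libraries, so that the groups overlapped (log2 fold change 0.18 ± 0.07, SE, adjusted p = 0.0357). The call was lost without any 1 of 5 libraries, scramble + IgG library 2 (0.13), either scramble + anti-IL-6R library (0.19 and 0.16), shMCT-1 + IgG library 1 (0.16) and shMCT-1 + anti-IL-6R library 1 (0.16). Eno2, the neuronal form, was near 1 CPM or lower in most libraries, from 0.400 to 1.61 CPM, and was not called (log2 fold change 0.85 ± 0.37, adjusted p = 0.0617). Only shMCT-1 libraries held it above 1 CPM, so that it entered the test through the group where it was higher. Eno2 was called without scramble + IgG library 2 (1.02), shMCT-1 + IgG library 1 (1.02) or shMCT-1 + anti-IL-6R library 2 (1.07). The calls of Tpi1, Eno1 and Pkm were lost with the GC and length correction, where their log2 fold changes were -0.10, -0.11 and 0.03. Among members still called higher, values also became smaller, as for Aldoa (0.15), Pgam1 (0.28) and Gpi1 (0.215). Those of Slc16a1 (0.54), Bnip3l (0.61), P4ha1 (0.70) and Bnip3 (1.12) became larger. Over all 12695 tested genes with a transcript sequence, the log2 fold change had a Spearman correlation of 0.26 with GC content and -0.31 with transcript length, a description across genes. The members' median log2 fold change was 0.22 after the correction, against 0.008 over all genes. With it 18 members were called higher and 7 lower, and the share of all genes called with it is not given here.

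Reads of some members are hard to place because near-identical copies exist, here taken as 95% identity over at least 300 bases. The copies of Gapdh, 77 loci, took 27.0% to 35.1% of the reads counted to Gapdh and its copies together, those of Eno1 took 33.9% to 38.7%, those of Pgk1 6.70% to 9.06% and those of Bnip3 4.32% to 9.46%. The Eno1 copy with the most counts was Eno1b, which itself rose by 0.44 ± 0.10 on the log2 scale (adjusted p = 0.00182). With the copies' counts added to the members, 21 members were still called higher and 5 lower. In addition, 15.3% of the exon bases of Pkm are shared with Gm49759 on the same strand, which was counted at 36.9 to 115 CPM. Pfkp shares 5.58% of its exon bases with Pitrm1 on the opposite strand, which was counted at 114 to 187 CPM. Ankrd37 shares 22.7% with Lrp2bp on the opposite strand, at up to 0.400 CPM. It also shares 3.7% with Ufsp2 on the opposite strand, at 28.7 to 34.8 CPM, where Ankrd37 itself was 1.58 to 4.09 CPM. Whether the counting used strand is not given in the sources used here, so that reads from such overlaps may be shared.

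**Figure D2:**
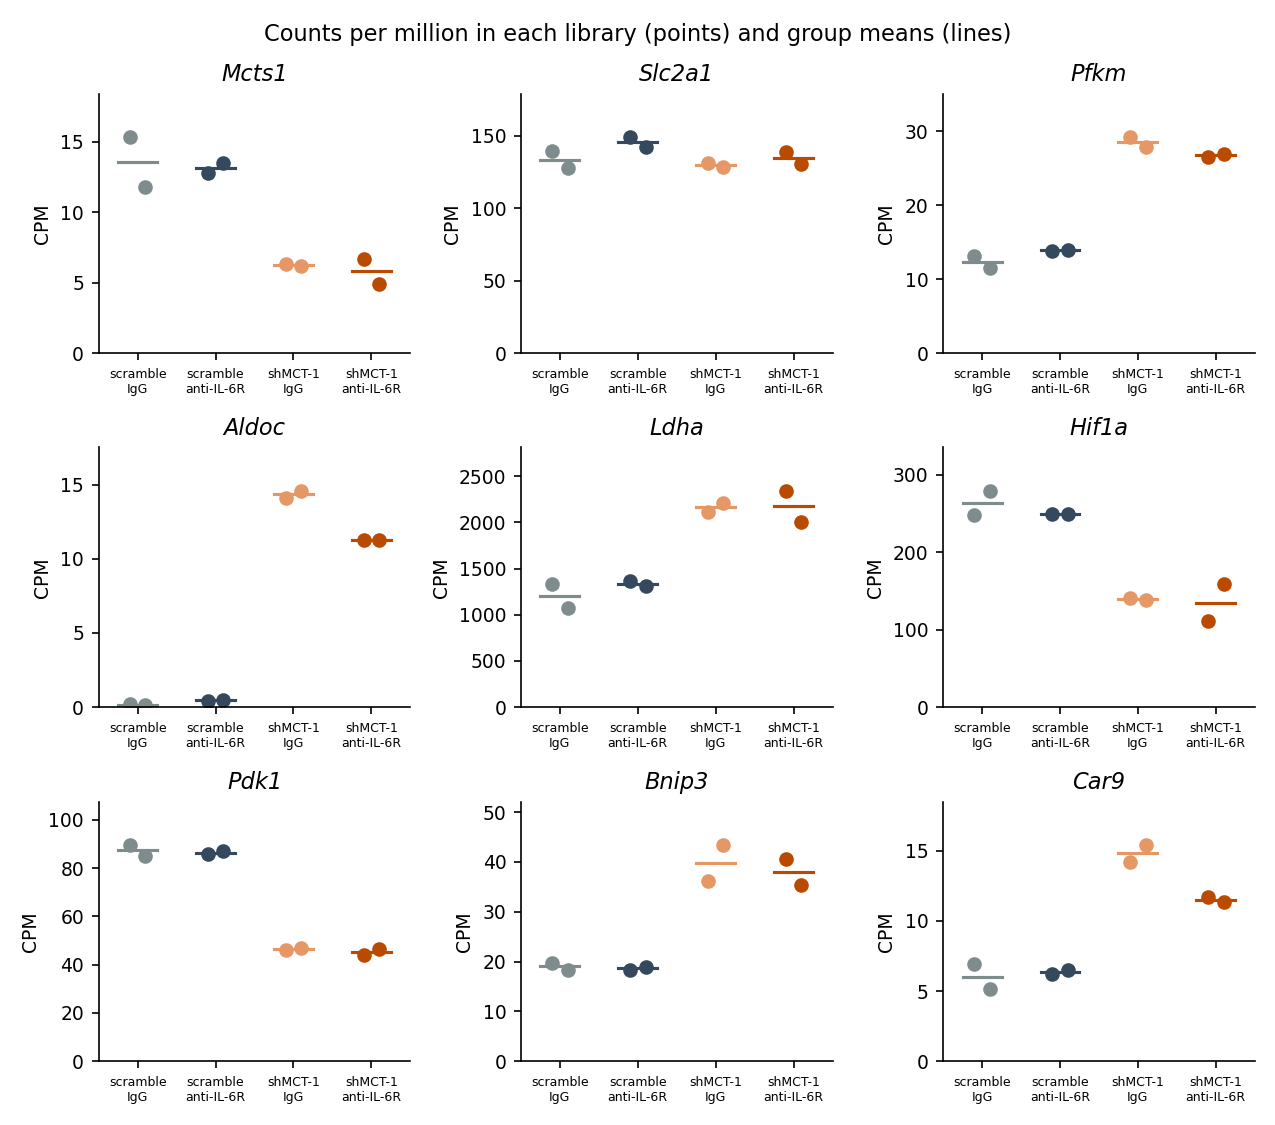
CPM of Mcts1 and 8 members in each library (points, 2 per group) with the group means as lines, each axis starting at 0. Pfkm, Aldoc, Ldha, Bnip3 and Car9 are higher and Mcts1, Hif1a and Pdk1 lower in the shMCT-1 libraries without overlap, while the Slc2a1 libraries overlap at 127 to 149 CPM.

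At the end of the pathway, transcripts for making and moving lactate rose, and those of a kinase that restrains pyruvate oxidation fell. Ldha, the lactate dehydrogenase subunit that favors lactate and a classical HIF target, was 1330 and 1071 CPM in scramble + IgG, 1363 and 1309 CPM in scramble + anti-IL-6R, 2111 and 2213 CPM in shMCT-1 + IgG, and 2342 and 2009 CPM in shMCT-1 + anti-IL-6R. All shMCT-1 libraries lay well above the scramble libraries, and Ldha was 1.77-fold higher (log2 fold change 0.83 ± 0.08, SE, adjusted p = 5.96e-06). Ldhb, the subunit that favors pyruvate, had 0 counts in all 8 libraries. The floor of 3 counts corresponds to at most 0.151 CPM in any library, and the limit covers counting error only.

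Slc16a1, the lactate and pyruvate transporter, rose from between 237 and 247 CPM in scramble to between 287 and 313 CPM in shMCT-1 (log2 fold change 0.33 ± 0.05, SE, adjusted p = 1.34e-04). Slc16a3, the hypoxia-inducible lactate exporter MCT4, was low in every library, from 0.0455 to 0.545 CPM, and was 0.0121% to 0.185% of both transporters' transcripts per exon length. Pdk1, the kinase that switches off pyruvate dehydrogenase and another known HIF target, was 89.7 and 85.1 CPM in scramble + IgG, 85.9 and 87.0 CPM in scramble + anti-IL-6R, 46.0 and 46.9 CPM in shMCT-1 + IgG, and 44.0 and 46.7 CPM in shMCT-1 + anti-IL-6R. The spread within each group was small beside the difference, and Pdk1 fell by 0.87 on the log2 scale (SE 0.05, adjusted p = 2.28e-07).

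Of the 3 tested members that encode a HIF alpha subunit or a prolyl hydroxylase, Hif1a was called. Hif1a, the regulated subunit of HIF-1, was 248 and 279 CPM in scramble + IgG, 249 and 249 CPM in scramble + anti-IL-6R, 140 and 138 CPM in shMCT-1 + IgG, and 111 and 158 CPM in shMCT-1 + anti-IL-6R. The shMCT-1 libraries all lay below the scramble libraries, and Hif1a fell by 0.86 on the log2 scale (SE 0.10, adjusted p = 1.74e-05). The HIF-1 alpha protein, whose stability sets HIF activity, was not measured in these libraries. Epas1, which encodes the other main alpha subunit, was at or below 0.202 CPM in every library. The prolyl hydroxylase genes Egln1, at 133 to 145 CPM, and Egln3, at 40.6 to 47.1 CPM, overlapped between the backgrounds. Their log2 fold changes were 0.01 ± 0.05 and -0.01 ± 0.07 (SE, adjusted p = 0.798 and 0.882).

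Of the other hypoxia response genes, 7 of 9 tested rose, Ndrg1 fell and Vegfa was not called, and 4 of them were more than 2-fold higher. Car9, a membrane carbonic anhydrase that regulates pH, was 6.90 and 5.15 CPM in scramble + IgG, 6.24 and 6.53 CPM in scramble + anti-IL-6R, 14.2 and 15.4 CPM in shMCT-1 + IgG, and 11.7 and 11.3 CPM in shMCT-1 + anti-IL-6R. The groups did not overlap between the backgrounds (log2 fold change 1.12 ± 0.12, SE, adjusted p = 1.16e-05). Ankrd37, an ankyrin repeat gene induced by HIF, was 1.60 and 1.58 CPM, 2.30 and 2.06 CPM, 3.84 and 4.09 CPM, and 3.73 and 3.60 CPM in the same order of groups (log2 fold change 1.07 ± 0.17, adjusted p = 2.17e-04).

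Bnip3 and Bnip3l encode receptors that mark mitochondria for autophagy. Bnip3 was 19.7 and 18.4 CPM in scramble + IgG, 18.3 and 18.9 CPM in scramble + anti-IL-6R, 36.2 and 43.5 CPM in shMCT-1 + IgG, and 40.6 and 35.3 CPM in shMCT-1 + anti-IL-6R. It was 2.14-fold higher in shMCT-1 without overlap (log2 fold change 1.10 ± 0.08, SE, adjusted p = 7.16e-07). Bnip3l rose less, from between 63.2 and 73.8 CPM to between 75.9 and 97.6 CPM (log2 fold change 0.46 ± 0.08, adjusted p = 2.88e-04).

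P4ha1 and P4ha2 encode catalytic subunits of the collagen prolyl hydroxylase of the endoplasmic reticulum. P4ha2 was 11.5 and 11.4 CPM in scramble + IgG, 12.2 and 13.2 CPM in scramble + anti-IL-6R, 22.9 and 24.6 CPM in shMCT-1 + IgG, and 24.2 and 26.1 CPM in shMCT-1 + anti-IL-6R, a rise in every shMCT-1 library (log2 fold change 1.07 ± 0.07, SE, adjusted p = 3.44e-07). P4ha1 rose from between 56.4 and 59.8 CPM to between 82.4 and 88.7 CPM (log2 fold change 0.62 ± 0.06, adjusted p = 3.65e-06). Kdelr3, which returns proteins to the endoplasmic reticulum, rose from between 41.5 and 58.5 CPM to between 78.2 and 87.1 CPM (log2 fold change 0.69 ± 0.10, adjusted p = 7.83e-05).

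Vegfa, the angiogenic growth factor and a textbook HIF target, was 56.2 to 58.9 CPM in scramble and 50 to 54.4 CPM in shMCT-1. These CPM, which leave out the TMM factors, did not overlap, and Vegfa was not called (log2 fold change -0.09 ± 0.06, SE, adjusted p = 0.150). Ndrg1, a stress-induced gene with many inputs besides HIF, was 350 to 378 CPM in scramble and 299 to 322 CPM in shMCT-1 and fell by 0.18 on the log2 scale (SE 0.06, adjusted p = 0.0153). The call of Ndrg1 was lost without scramble + anti-IL-6R library 1 (-0.17) or shMCT-1 + IgG library 2 (-0.15). Adm, the gene of the vasodilator adrenomedullin, was at or below 0.0504 CPM in every library.

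The comparison of shMCT-1 with scramble was made within each treatment. Within IgG, 19 members were higher and 4 lower, against 28.3% called higher and 26.2% called lower of all tested genes. Within anti-IL-6R, 19 were higher and 3 lower, against 26.9% and 27.3%. In both comparisons, which use different libraries, 19 members were called higher and 3 lower, where 23.6% of all tested genes were called higher in both and 22.7% lower in both. The 3 lower in both were Pfkp, Pdk1 and Hif1a, and no member was called in opposite directions. The interaction of shMCT-1 with anti-IL-6R was called for 0 members and 0% of all genes with edgeR's quasi-likelihood test. Only Aldoc had an unadjusted interaction p under 0.05 among the members, against 315 of all tested genes, and DESeq2 called 0 members and 6 genes in all.

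**Figure D3:**
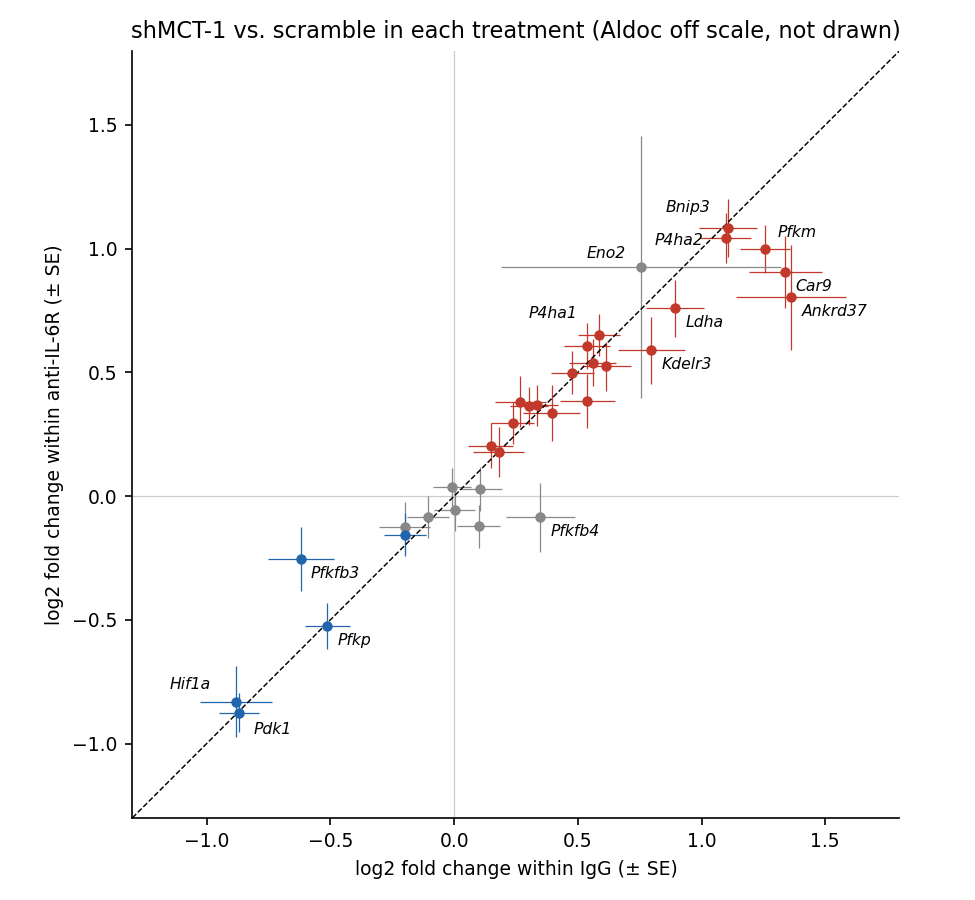
Log2 fold changes of shMCT-1 vs. scramble within IgG (horizontal) and within anti-IL-6R (vertical) for 33 tested members, with standard errors as bars and the line of equal change dashed, each comparison resting on 4 libraries of its own. Red members were called higher and blue ones lower across both treatments, and Aldoc, at 6.37 within IgG and 4.69 within anti-IL-6R, lies off the scale and is not drawn.

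Anti-IL-6R itself called none of the members. Within scramble, comparing anti-IL-6R vs. IgG, 0 members and 0% of all tested genes passed with edgeR's quasi-likelihood test, and 1 member had an unadjusted p under 0.05, where 1.31% of all genes did. Within shMCT-1, in the same comparison, 0 members and 0% of all genes passed, and 4 members had an unadjusted p under 0.05, where 3.98% of all genes did. DESeq2 called 0 members in either background, and 0 genes in scramble and 11 in shMCT-1. The exact test of edgeR likewise called 0 members, and 10 genes in scramble and 14 in shMCT-1. Across both backgrounds 0 members and 0% of all genes were called, 0 members had an unadjusted p under 0.05, and DESeq2 called 1 gene, which was no member. Those members were Aldoc in scramble, at a log2 fold change of 1.34 ± 0.38 (SE), and in shMCT-1 Aldoc at -0.34 ± 0.15, Pfkfb3 at 0.32 ± 0.14, Pfkfb4 at -0.41 ± 0.14 and Car9 at -0.36 ± 0.14, and in edgeR's quasi-likelihood test the adjusted p of each was 1. In 3 members, Pfkm, Aldoc and Ankrd37, the anti-IL-6R libraries lay wholly above the IgG libraries in scramble and wholly below them in shMCT-1. Of all tested genes, 3.56% had libraries that did not overlap in opposite directions in this way, whichever background was the higher one.

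The isozyme make-up was set out as shares. Between scramble and shMCT-1, the mean share of Hk2 among hexokinase transcripts per exon length went from 65.3% to 57.2%, and that of Pfkp among phosphofructokinases from 15.95% to 7.95%. Pfkfb4 was 47.5% to 51.1% of the pair with Pfkfb3 in scramble and 51.5% to 67.5% in shMCT-1. Eno3, the muscle enolase, which is no member and was added to this comparison after its value was seen, was 2.75% to 3.05% of the enolase transcripts in scramble and 9.45% to 11.3% in shMCT-1. These shares are descriptions, and they depend on the exon length assigned to each gene. From counts without length, Eno3 was 0.906% to 1.01% in scramble and 3.26% to 3.94% in shMCT-1. The enolase shares leave out the reads counted to the near-identical copies of Eno1.

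**Figure D4:**
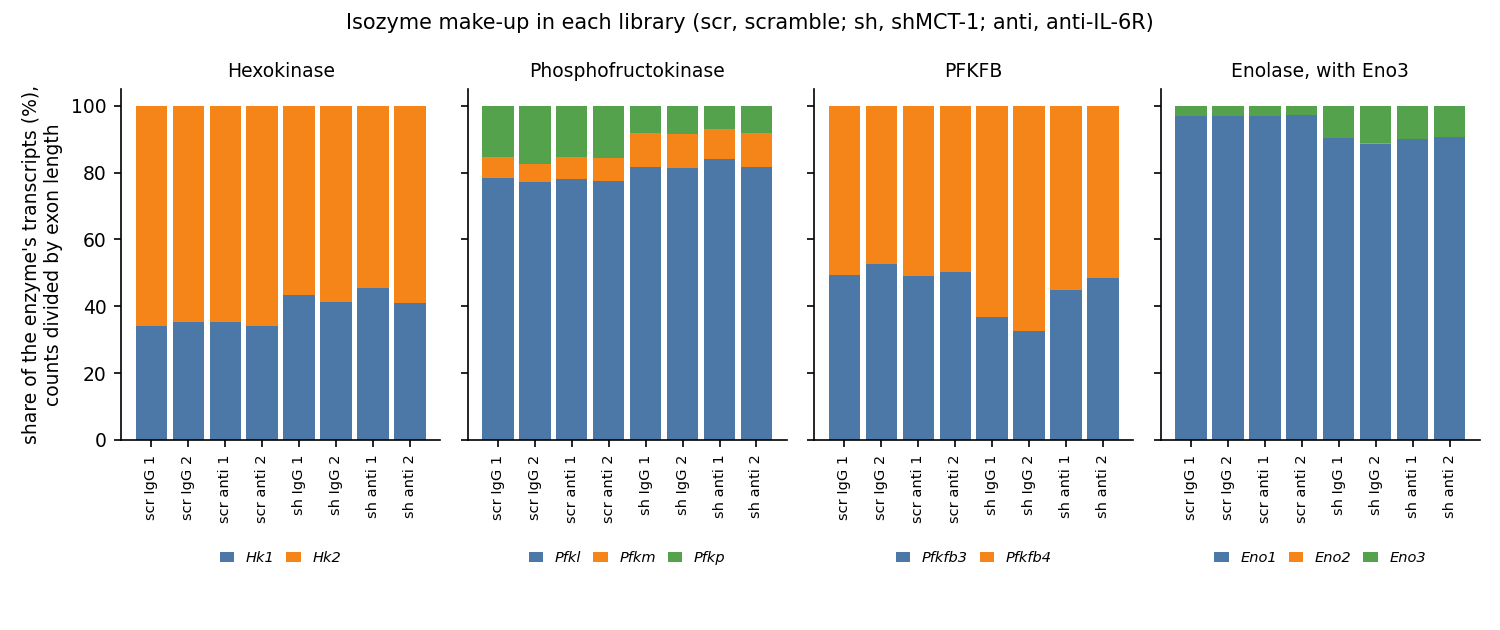
Share of each isozyme among the transcripts of its enzyme in each of the 8 libraries, from counts divided by exon length and without the copies of Eno1. The 4 shMCT-1 libraries have lower shares of Hk2 and Pfkp and higher shares of Pfkfb4 and Eno3 than the 4 scramble libraries. The level of Pfkfb4 itself was not called.

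Per exon length, as TPM from each gene's own counts, the highest median was that of Pkm, with 2122 to 2434 over the 8 libraries. Gapdh followed at 1644 to 2381, Eno1 at 1404 to 1667, Pgam1 at 1268 to 1942, Ldha at 1026 to 2018, Pgk1 at 1066 to 1649 and Aldoa at 1168 to 1539, and these ranges overlap from one member to the next, while Tpi1 stood below them at 884 to 1009. Hif1a was at 53.5 to 150 on this scale, near Slc2a1 at 103 to 133, and the regulators Pfkfb3 and Pfkfb4 were low, at 2.99 to 5.89 and 4.6 to 6.2. Near-identical copies are left out of these levels. They took 27.0% to 35.1% of the reads of Gapdh and its copies together. For Eno1 this was 33.9% to 38.7%, and for Pkm at most 0.482%, so that the order of the top members is not settled. Exon length sums all annotated exons, 5379 bases for Eno1, whose longest transcript held 2027.

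The chromosome on which a member lies was compared with its change, because chromosomes differed between the lines. The median log2 fold change over the tested genes of a chromosome was -0.42 on chromosome 13, -0.37 on chromosome 2 and -0.35 on chromosome 12, and lay between -0.08 and 0.21 on the other 17 chromosomes. On these 3 chromosomes 58.8% to 60.6% of the tested genes were called lower. Of the 5 members called lower, 4 lie there, namely Pfkp on chromosome 13, Pfkfb3 and Pdk1 on chromosome 2 and Hif1a on chromosome 12. Pfkp and Pfkfb3 differed from the median of their chromosome by -0.10 and -0.06, and Pdk1 and Hif1a both by -0.50. Egln3, the remaining tested member on these chromosomes, lay 0.34 above the median of chromosome 12. The members that rose lay on other chromosomes, with medians of -0.08 to 0.20. On GRCm38, Pfkp lies at chromosome 13, 6579768 to 6648777, Pdk1 at chromosome 2, 71873224 to 71903858, and Hif1a at chromosome 12, 73901375 to 73947530. Of the members that rose, Ldha lies at chromosome 7, 46841475 to 46855627, Aldoc at chromosome 11, 78322968 to 78327781, and Pfkm at chromosome 15, 98092589 to 98132451. What part the chromosome has in a member's change was not tested.

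Each of the neighbouring lists held genes called higher and genes called lower. Of all tested genes 35.0% were called higher and 34.0% lower. Of 32 other glycolysis and transport genes 16 were tested, 6 rose and 3 fell (37.5% and 18.8%), with a median log2 fold change of 0.05. The largest rises were those of Eno3 (2.07 ± 0.08, SE, adjusted p = 8.01e-09), of the glucose transporter gene Slc2a6 (1.01 ± 0.22, adjusted p = 0.00167) and of Bpgm, the bisphosphoglycerate mutase (0.88 ± 0.08, adjusted p = 3.85e-06). The D-lactate dehydrogenase gene Ldhd (-1.65 ± 0.24, adjusted p = 1.21e-04), the transporter gene Slc16a4 (-1.54 ± 0.28, adjusted p = 5.65e-04) and the phosphoglucomutase relative Pgm2l1 (-0.75 ± 0.14, adjusted p = 7.04e-04) fell most, and Ldhd exceeded 1 CPM in the scramble libraries alone.

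Of 12 tested genes of pyruvate entry into mitochondria, 4 were higher and 4 lower (median 0.01), shares near the 35.0% and 34.0% of all tested genes. Mpc2, a pyruvate carrier subunit, rose by 0.80 ± 0.13 (adjusted p = 2.37e-04), Pdhb by 0.41 ± 0.06 (adjusted p = 8.49e-05) and Dlat by 0.29 ± 0.06 (adjusted p = 8.78e-04) on the log2 scale. Pdpr and Pdp1, which belong to the phosphatase that reactivates pyruvate dehydrogenase, had log2 fold changes of -1.27 ± 0.12 and -0.77 ± 0.10 (adjusted p = 7.26e-06 and 5.81e-05), and Dld, the shared dehydrogenase subunit, one of -0.42 ± 0.05 (adjusted p = 4.35e-05). Pdp2, the other catalytic subunit gene of that phosphatase, was not called (0.03 ± 0.08, adjusted p = 0.743) and is named after its value was seen.

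The pentose phosphate pathway, which branches off at glucose-6-phosphate, had 4 of 8 genes higher and 3 lower (50% and 37.5%, median 0.15). Its lactonase gene Pgls (0.79 ± 0.12, adjusted p = 1.20e-04), Taldo1 (0.73 ± 0.08, adjusted p = 1.22e-05) and Rpe (0.31 ± 0.06, adjusted p = 0.00100) rose most, and G6pdx, the entry enzyme (-0.36 ± 0.05, adjusted p = 1.37e-04), Rpia (-0.29 ± 0.07, adjusted p = 0.00228) and Pgd (-0.17 ± 0.06, adjusted p = 0.0181) fell. Of 9 tested gluconeogenesis and glycogen genes 2 rose and 3 fell (22.2% and 33.3%, median -0.10). G6pc3 and Ugp2 rose, at 0.89 ± 0.08 (adjusted p = 4.85e-06) and 0.15 ± 0.06 (adjusted p = 0.0375). Pcx, pyruvate carboxylase, had the largest fall of these lists at -2.02 ± 0.09 (adjusted p = 2.43e-08), before Gbe1, the glycogen branching enzyme, at -0.64 ± 0.09 (adjusted p = 6.53e-05).

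Among other genes of oxygen sensing 5 of 11 tested rose and 4 fell (45.5% and 36.4%, median 0.07), against 35.0% and 34.0% of all tested genes. The partner of the alpha subunits, Arnt, had a log2 fold change of -0.48 ± 0.08 (adjusted p = 2.26e-04), the asparaginyl hydroxylase Hif1an one of -0.40 ± 0.06 (adjusted p = 2.52e-04) and the transcriptional regulator Cited2 one of -0.37 ± 0.07 (adjusted p = 6.97e-04). Rbx1 (0.62 ± 0.07, adjusted p = 1.53e-05), Elob (0.59 ± 0.10, adjusted p = 3.74e-04) and Eloc (0.41 ± 0.08, adjusted p = 6.14e-04), components of the VHL ubiquitin ligase complex, rose most. Of the other components in the list, Vhl itself was lower (-0.35 ± 0.07, adjusted p = 6.61e-04) and Cul2 was not called (0.07 ± 0.07, adjusted p = 0.377), both being named after their values were seen.

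Of 30 other genes known to be induced through HIF, 26 were tested, 16 rose and 5 fell (61.5% and 19.2%, median 0.38). This list and the members were both chosen with results of these data known, so that it gives no independent support. Stc2, a secreted glycoprotein gene (2.00 ± 0.09, adjusted p = 2.83e-08), Angptl4, a regulator of lipoprotein lipase (1.21 ± 0.23, adjusted p = 6.97e-04), which exceeded 1 CPM in the shMCT-1 libraries alone, and Hilpda, a lipid droplet gene (0.98 ± 0.12, adjusted p = 2.89e-05), rose most. Edn1, the gene of the vasoconstrictor endothelin (-1.82 ± 0.19, adjusted p = 1.14e-05), the histone demethylase gene Kdm3a (-0.47 ± 0.06, adjusted p = 4.79e-05) and the mTOR inhibitor gene Ddit4 (-0.34 ± 0.08, adjusted p = 0.00383) fell most. Direction was thus mixed also among known HIF targets, members and others alike.

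**Figure D5:**
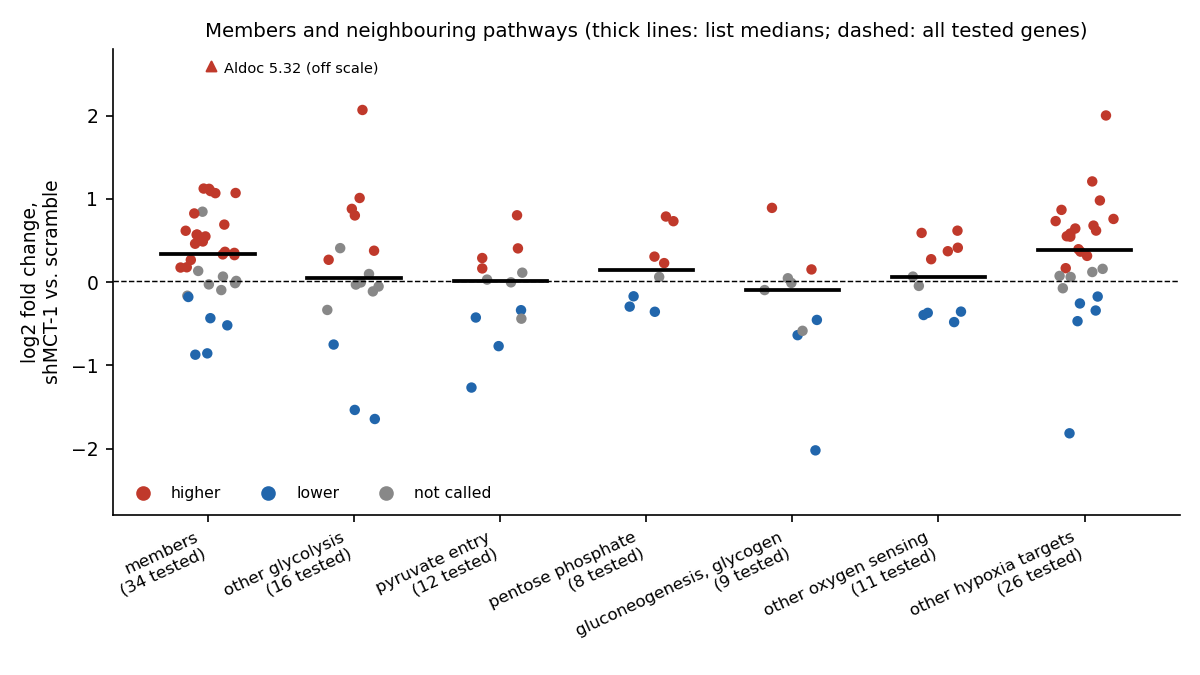
Log2 fold changes of shMCT-1 vs. scramble across both treatments for the tested genes of the member set and 6 neighbouring lists, with list medians as thick lines and the median of all tested genes dashed. The medians of the members (0.34) and of other hypoxia targets (0.38) lie above those of the remaining lists, which run from -0.10 to 0.15, and Aldoc is drawn as a triangle off the scale.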

How the data were processed

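Poly(A) RNA-seq libraries of 4T1 cells were used, 2 in each of 4 groups, with the group taken from the labels. The authors used cutadapt 1.18 for trimming and STAR 2.7.0d with GENCODE M19 for alignment to mm10, and deposited RSEM expected counts per gene, of which 29.6% of the values above 0 were not whole. These were rounded. Where a gene exceeded 1 CPM in 2 or more libraries (12704 genes) it was tested with edgeR 4.0.16 (quasi-likelihood, TMM factors 0.976 to 1.03, Benjamini-Hochberg adjustment over all tested genes, called under 0.05) in R 4.3.3. Comparisons within a treatment were fitted on all 8 libraries, which share 1 estimate of the spread, and those across treatments with an additive model. SE is the log2 fold change divided by the square root of F. CPM scale the counts to a fixed library total, and per-length levels use GENCODE M21 exon lengths, so that fold changes differ slightly from ratios of CPM. Simulated data were used to test the fits. Intervals and floors cover counting error only. Copies were found with BLAST 2.17.0. The members and gene lists were chosen with earlier results of these data known. Named genes are all members, Mcts1 and, of each other list, up to 3 called genes that rose most and up to 3 that fell most with a mean of at least 1 CPM. Some genes of these lists are not reported here by name. Alternatives were DESeq2 1.42.0, RLE size factors, an exact test, other filters, a replicate block, fits of the compared libraries alone and each library left out. Adding the copies' counts and correcting for GC content and length were chosen after seeing the data.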

Additional observations from a re-analysis of the deposited data

Results flagged for a closer look

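In 3 members the anti-IL-6R libraries did not overlap the IgG libraries of the same background and lay on opposite sides of them in scramble and in shMCT-1, a pattern found in 3.56% of all tested genes. For Aldoc the log2 fold change of anti-IL-6R against IgG was 1.34 in scramble and -0.34 in shMCT-1, a difference of -1.68 (interaction in edgeR's quasi-likelihood test, adjusted p = 1), and the scramble libraries held 38 Aldoc counts in all. For Pfkm the values were 0.17 and -0.09, a difference of -0.26 (adjusted p = 1). For Ankrd37 they were 0.45 and -0.11, a difference of -0.56 (adjusted p = 1). None of these differences passed the adjusted test.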

How the results depend on the processing

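The counts of members called in shMCT-1 vs. scramble stayed within 1.5 times of those reported under each alternative run. Leaving out 1 library gave 19 to 22 members higher and 4 to 6 lower across both treatments, 16 to 19 and 4 to 6 within IgG, and 14 to 20 and 3 within anti-IL-6R. Of the neighbouring lists, other glycolysis genes had 1 lower instead of 3 when more than 1 CPM was required in 7 libraries, where fewer genes are tested. Gluconeogenesis and glycogen genes had 1 higher instead of 2 with DESeq2, with RLE size factors, with no filter and with 7 libraries required, and 1 to 2 when a library was left out. The cause was not tested. With the GC and length correction the log2 fold changes of Tpi1, Eno1 and Egln1 reversed to -0.10, -0.11 and -0.13, Pfkp and Pkm lost their calls, and Slc2a1 (-0.16), Egln1 (adjusted p = 0.0286) and Vegfa (-0.17) were called lower. Egln1 was also -0.004 with 7 libraries required, and Egln3 0.002 with no filter, and when a library was left out they ran from -0.003 to 0.025 and from -0.062 to 0.021. Eno2 was called with no filter (0.86), and Eno1 was not called with 7 libraries required (0.16), nor Ndrg1 with no filter (-0.17). Without division by length, the differences in isozyme share were -12.9 points for Pfkp, 0.818 for Aldoc and 2.54 for Eno3. The replicate numbers of the labels did not pair the libraries (correlations of deviations -0.0797 to 0.106). With a replicate block 21 members were higher and 6 lower across both treatments, 18 and 4 within IgG and 19 and 3 within anti-IL-6R, Hk2 being the member that gained a call (-0.16). Over genes with a mean of at least 10 CPM, 11 of the medians of members' chromosomes moved by more than their spread between the IgG and the anti-IL-6R comparison. At 2 libraries a group, small differences such as that of Pgm1 may go uncalled.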
